A study of Homo sapiens with 36 samples.

Results

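The LNCaP line labelled sgT33-5_MC_C2 (C2 below) was compared with the LNCaP line labelled NT3, both 6 h after R1881, a synthetic androgen, was added at 5 nM. LNCaP is an androgen-dependent human prostate cancer cell line from a lymph node metastasis. The comparison took in 6 of the 36 libraries of the series, 3 of C2 and 3 of NT3, which were picked by the line and treatment in their labels. Of 61805 named genes in the count table, 15519 passed an expression filter and were tested. The series asks whether losing TRIM33 alters transcription driven by androgen. Its title led to reading sgT33-5 as the name of a CRISPR guide for TRIM33, and NT3 as that of a control guide with no target. The labels expand none of these names, including MC and C2, and do not say whether C2 grew from a single cell. Both lines spent 3 days in medium with 5% charcoal-stripped serum, which removes steroid hormones, before treatment. Libraries of both lines that received the solvent DMSO for 6 h, and libraries of another line, sgT33-5_MC_F2 (F2 below), with R1881, served for further comparisons. Libraries of a line labelled sgT33-5 only, with R1881, served for medians by chromosome. Every line and group shares the LNCaP parent, the stripped serum and the solvent, as far as the labels say.

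Androgens act in the nucleus through DNA sites built from copies of the hexamer AGAACA, and raise genes of secretion, lipid metabolism and growth in prostate epithelium. They also lower a smaller set of genes, several of which inactivate androgens. TRIM33 (also called TIF1-gamma) is an E3 ubiquitin ligase that reads histone marks through its PHD finger and bromodomain and is best known as a partner of SMAD proteins in TGF-beta signalling. H2BK120 ubiquitination, placed by the RNF20 and RNF40 ligases, accompanies transcription elongation.

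Promoter sequences are shown for 2 pairs of neighbouring paralogs whose members differed in how C2 compared with NT3 or that carry or lack an exact AGAACA hexamer. They are the 250 bases before the gene start, read 5′ to 3′ on the gene's own strand from RefSeq on GRCh38.p14. The hexamer AGAACA, where present, is in capitals. The kallikreins are KLK3 at chr19:50854665-50854914 (plus strand) and KLK2 at chr19:50873189-50873438 (plus strand). KLK3 was lower in C2, and KLK2 was not called unless the replicate number was added to the fit as a block. The glucuronosyltransferases are UGT2B15 at chr4:68670653-68670902 (minus strand) and UGT2B11 at chr4:69214749-69214998 (minus strand), both higher in C2.
KLK3: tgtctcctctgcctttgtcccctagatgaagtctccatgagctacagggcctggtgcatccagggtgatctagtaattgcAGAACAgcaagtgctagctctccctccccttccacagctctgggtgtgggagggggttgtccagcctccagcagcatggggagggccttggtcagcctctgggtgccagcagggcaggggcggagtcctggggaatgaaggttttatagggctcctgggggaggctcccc
KLK2: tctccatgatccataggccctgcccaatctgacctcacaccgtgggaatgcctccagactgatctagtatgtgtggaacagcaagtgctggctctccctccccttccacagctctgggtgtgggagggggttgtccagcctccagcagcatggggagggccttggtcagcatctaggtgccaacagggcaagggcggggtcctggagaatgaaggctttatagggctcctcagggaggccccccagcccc
UGT2B15: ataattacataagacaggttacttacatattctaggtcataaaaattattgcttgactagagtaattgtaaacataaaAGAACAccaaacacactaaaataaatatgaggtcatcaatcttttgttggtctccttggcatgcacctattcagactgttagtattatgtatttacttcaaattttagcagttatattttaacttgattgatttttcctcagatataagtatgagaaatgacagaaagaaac
UGT2B11: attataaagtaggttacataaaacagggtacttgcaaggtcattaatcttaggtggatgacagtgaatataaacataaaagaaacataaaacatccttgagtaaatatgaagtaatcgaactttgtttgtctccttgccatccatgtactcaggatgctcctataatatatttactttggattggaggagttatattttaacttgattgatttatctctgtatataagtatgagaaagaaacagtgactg
The KLK3 and KLK2 stretches were identical at 205 of 259 aligned columns (79.2%). The hexamer of KLK3 begins at position -170 from the gene start, and the aligned KLK2 bases differ from it by A1G, with positions counted from 1 at the 5′ base of the hexamer. The UGT2B15 and UGT2B11 stretches were identical at 186 of 261 columns (71.3%), and the UGT2B15 hexamer begins at -172. AGAACA was searched on both strands, so that TGTTCT also counted, and overlaps were allowed. It occurred in the 250 upstream bases of 4046 of 27305 genes in the RefSeq table (14.8%) and in 1186 of the 11043 tested genes that matched it (10.7%). Among matched genes lower in C2 it occurred in 189 of 1620 (11.7%), and among matched androgen response genes lower in C2 in 10 of 68 (14.7%). A match is a stretch of letters and was not tested for binding.

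The 6 libraries held 15488682 to 19793268 counts, and mitochondrial genes took 4.16% to 6.01% of them, with overlap between the lines. In depth the lines did not overlap: the C2 libraries held at least 17418304 counts and the NT3 libraries at most 16099091. Pairs of replicates differed by a chi-square per gene of 3.59 to 7.18, above the value near 1 that counting error would give, and none were duplicates. The labels do not say whether replicates were separate cultures, so p-values measure the spread between these libraries, which may be technical. Levels are in CPM, the usual depth-scaled unit of counts, relative to the TMM-scaled library total, and fold changes are on the log2 scale with a standard error (SE), C2 minus NT3, for 3 libraries against 3. A gene was called where edgeR's quasi-likelihood test gave a Benjamini-Hochberg adjusted p under 0.05 over all genes tested.

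TRIM33 (ENSG00000197323, chromosome 1, 114392790 to 114511203), the presumed target, was measured first. It stood at 128, 121 and 128 CPM in NT3 and at 46.1, 42.3 and 38.5 CPM in C2 with R1881. The groups did not overlap, and C2 held 2.97-fold less (log2 fold change -1.57, SE 0.08, adjusted p = 5.54e-14). With DMSO the 3 NT3 libraries lay at 95.7, 89 and 95.1 CPM and the 3 C2 libraries at 34.5, 36.9 and 34.2 CPM. The transcript was lower in the line whose label names the guide and remained detectable in every C2 library. Protein was not measured. The luminal epithelial markers EPCAM, CDH1 and HOXB13 were expressed in both lines and not called, while 8 of 18 tested luminal markers were lower in C2, as described further on. Of 16 leukocyte markers, none passed the filter, with a summed level of 0.254 to 0.664 CPM in NT3 and 0.340 to 0.749 CPM in C2, and 10 and 11 of them were at 0. Of 10 endothelial markers 2 passed, with sums of 19.8 to 23.7 CPM in NT3 and 12.6 to 16.8 CPM in C2, nearly all from VWF.

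In all, 3564 genes were called, 23% of those tested. Of these, 1500 (9.67% of those tested) were higher in C2 and 2064 (13.3%) were lower. Most differences were small, with a median of 1.31-fold among the higher and 1.32-fold among the lower genes, and 603 genes differed at least 2-fold, 188 upward and 415 downward. The largest differences were therefore mainly falls, as the plot of fold change against adjusted p shows. The 3 C2 and 3 NT3 libraries did not overlap for 5812 genes, 37.5% of those tested, and for 3428 of the genes called. Protein-coding genes gave 1341 higher and 1875 lower calls among 12465 tested, and long non-coding RNAs 126 and 155 among 2288.

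**Figure D1:**
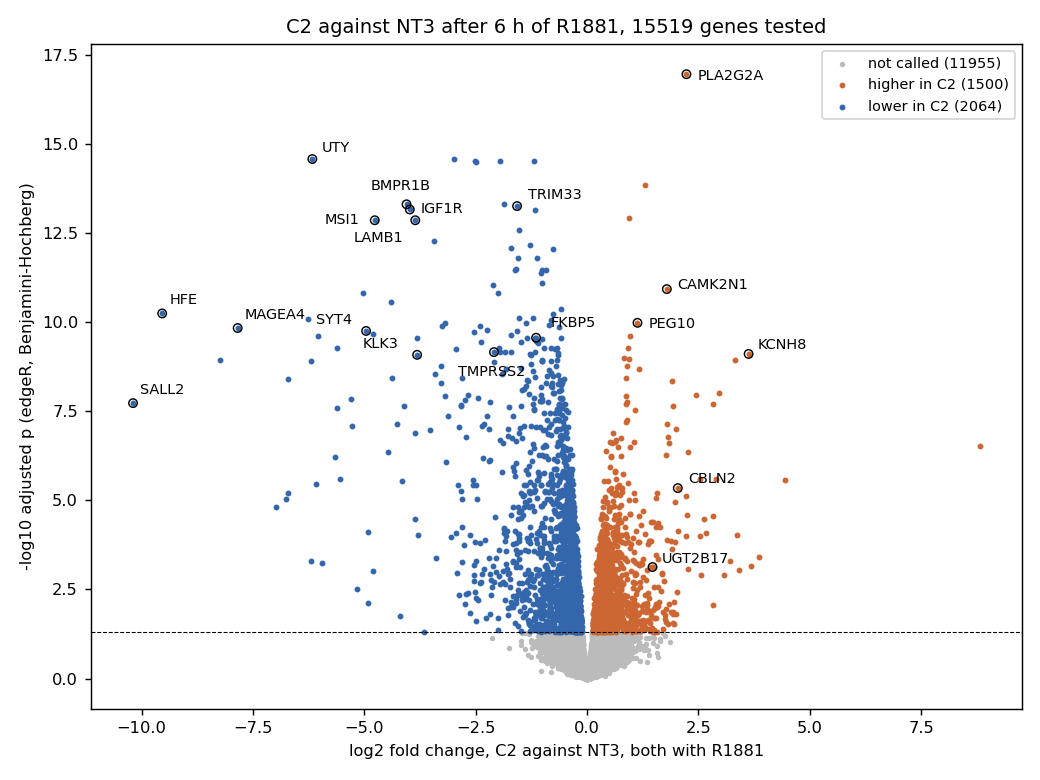
Each point is 1 of the 15519 tested genes, with the log2 fold change of C2 against NT3 after R1881 on the horizontal axis and -log10 of the edgeR adjusted p on the vertical axis. The dashed line marks an adjusted p of 0.05, with 2064 genes lower (blue), 1500 higher (orange) and the labelled genes named in the text.

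Genes that androgens raise in prostate cells were lower in C2 as a group. Of 111 tested members of a list of androgen response genes, 85 were lower and 2 higher, against 13.3% and 9.67% of all genes, and the list's median was -0.62 against 0.00 for all genes. Their summed level was 25400 to 27020 CPM in the NT3 libraries and 15480 to 16600 CPM in the C2 libraries. The 2 higher members, CCND1 (0.15) and RRP12 (0.21), lost their calls when some libraries were left out. The libraries hold RNA of whole cultures, so fewer responding cells and less RNA per cell cannot be told apart.

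KLK3 (ENSG00000142515, chromosome 19, 50854915 to 50860764), which encodes prostate-specific antigen and whose promoter is printed above, was the most strongly lowered kallikrein. Its level was 2631, 2804 and 2721 CPM in the NT3 libraries and 168, 141 and 269.9 CPM in the C2 libraries. No C2 library came near the lowest NT3 library, and the difference was 14.1-fold (log2 fold change -3.81, SE 0.22, adjusted p = 8.28e-10). Its neighbour KLK2 stood at 346, 428 and 515 CPM in NT3 and 235, 209 and 442 CPM in C2, and the groups overlapped (log2 fold change -0.54, SE 0.32, adjusted p = 0.256). With the replicate number added to the edgeR fit as a block, KLK2 was called lower in C2 (-0.59, adjusted p = 0.00987). KLK4, another kallikrein of the cluster, stood at 139.6, 152 and 129 and 120.0, 116 and 151 CPM, also overlapping (-0.12, adjusted p = 0.343). KLK15 was lower, at 6.36, 5.73 and 7.64 CPM in NT3 and 3.91, 3.46 and 4.27 CPM in C2 (-0.76, adjusted p = 0.00158). The kallikreins thus ranged from -3.81 to -0.12, and reads shared between close paralogs such as KLK3 and KLK2 could have been split by the counting.

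Other membrane and secretory genes of the list fell with KLK3. TMPRSS2 (ENSG00000184012, chromosome 21, 41464300 to 41531116), a serine protease of the cell surface, stood at 869, 969 and 693 CPM in NT3 and 179, 206 and 209.6 CPM in C2 (log2 fold change -2.09, SE 0.13, adjusted p = 6.93e-10). SLC45A3 (prostein), a transporter used as a prostate marker, stood at 486, 594 and 468 CPM and 117, 149.8 and 172 CPM (log2 fold change -1.82, SE 0.13, adjusted p = 2.07e-09). Neither pair of groups came near to overlapping. TRPM8, the cold-sensing ion channel, stood at 18.9, 19.9 and 19 CPM in NT3 and at 4.6, 4.37 and 5.53 CPM in C2 (-1.99, SE 0.13). The metalloreductase STEAP4 stood at 10.9, 15.9 and 8.64 CPM and 1.23, 1.19 and 2.31 CPM (-2.88, SE 0.29). ABCC4, an efflux pump for organic anions, stood at 234, 264 and 237 CPM in NT3 and 95.9, 97.4 and 113 CPM in C2 (-1.26, SE 0.10). These 5 genes were lower in each C2 library than in each NT3 library.

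Regulators that androgen induces were also lower. FKBP5, an immunophilin of steroid receptor complexes, stood at 612, 658 and 607 CPM in NT3 and 272, 285 and 292 CPM in C2 (log2 fold change -1.14, SE 0.08, adjusted p = 2.74e-10), a loss close to 2-fold with tight replicates. The hormone-induced kinase SGK1 stood at 34, 41.1 and 39.1 CPM in NT3 and 5.78, 8.28 and 10.5 CPM in C2 (-2.21, SE 0.21), and the transcription factor MAF at 101, 125 and 94.3 CPM and 33.3, 38.2 and 34.3 CPM (-1.60, SE 0.17). The elongation factor ELL2 stood at 174, 189.8 and 160.4 CPM in NT3 and 57.9, 60.2 and 62.4 CPM in C2 (-1.54, SE 0.08), and CAMKK2, a kinase that activates AMPK, at 514, 548 and 441 CPM and 213, 230.4 and 242 CPM (-1.13, SE 0.07). No C2 library of any of these genes reached the lowest NT3 library. NDRG1, a stress-response gene, was lower by a larger margin, at 184, 225 and 146 CPM and 33.6, 38.8 and 39.5 CPM (log2 fold change -2.31, SE 0.19, adjusted p = 7.4e-08).

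**Figure D2:**
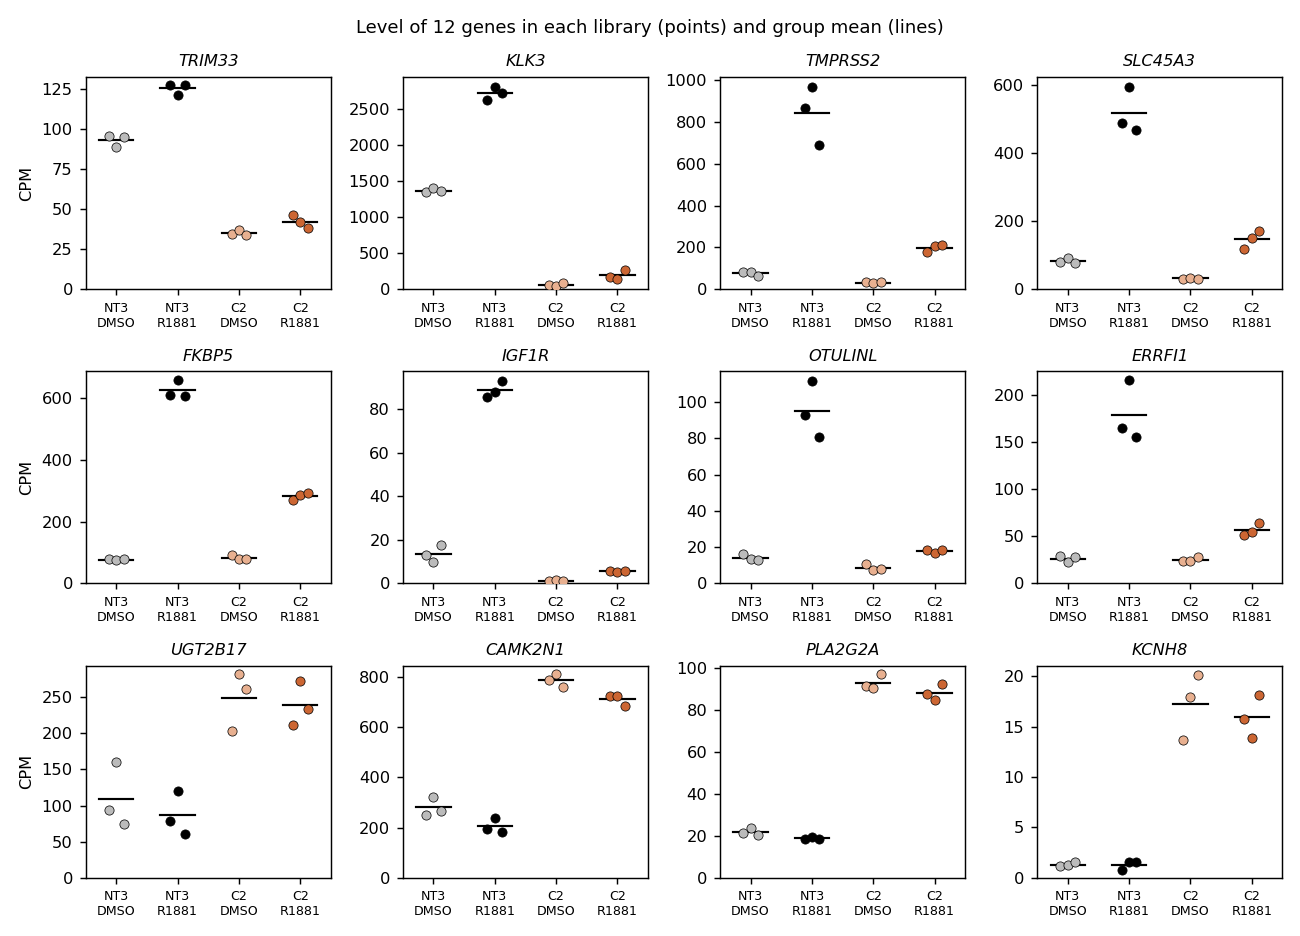
Each panel gives the level of 1 gene in CPM (vertical axis, from 0) in every library of NT3 and C2 with DMSO or R1881, with a line at the mean of 3. KLK3, TMPRSS2, SLC45A3 and IGF1R are lower in C2 with either treatment, FKBP5, OTULINL and ERRFI1 differ mainly with R1881, and UGT2B17, CAMK2N1, PLA2G2A and KCNH8 are higher in C2 with either treatment.

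Coregulators of androgen-driven transcription went in both directions. Of 26 tested members of a list of such regulators, 4 were higher (15.4%, against 9.67% of all genes) and 10 lower (38.5%, against 13.3%), with a median of -0.06. The pioneer factor FOXA1 (-0.19, adjusted p = 0.0879) and the homeobox factor HOXB13 (0.05, adjusted p = 0.666) were not called. GRHL2, an epithelial transcription factor, was lower (-1.0, SE 0.08), as were the acetyltransferase EP300 (-0.41, SE 0.13) and the steroid receptor coactivators NCOA3 (-0.35, SE 0.07) and NCOA2 (-0.24, SE 0.07). The number of lower members was 5 without C2 replicate 3, and 6 without C2 replicate 1 or NT3 replicate 1. The number higher was 2 without C2 replicate 2 or 3 or NT3 replicate 1, and 1 without NT3 replicate 2.

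Of the 4 genes of the TIF1 family, to which TRIM33 belongs, TRIM24, a reader of acetylated histones and coactivator of nuclear receptors, was lower, at 112, 124 and 108 CPM in NT3 and 78, 79.8 and 72.3 CPM in C2 (log2 fold change -0.58, SE 0.06, adjusted p = 1.62e-07). TRIM28, a corepressor that acts with zinc finger proteins, was higher, at 415, 408 and 395 CPM and 483, 504 and 503 CPM (log2 fold change 0.29, SE 0.06, adjusted p = 0.000687). Neither gene's groups overlapped. The H2B ubiquitin ligases RNF20, at 95.1, 102 and 97.9 CPM in NT3 and 97, 101 and 94.1 CPM in C2, and RNF40, at 122, 120.0 and 114 CPM and 111, 118 and 117 CPM, overlapped between the lines (-0.01 and -0.04, adjusted p = 0.889 and 0.608). Of 19 tested genes that place or remove H2B ubiquitin, 5 were lower and 0 higher, against 13.3% and 9.67% of all genes, and 1 to 3 were lower when any of the 6 libraries was left out. The histone mark itself was not measured in these libraries.

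Of 18 tested luminal markers, 8 were lower (44.4%, against 13.3% of all genes) and 0 higher, with a median of -0.39. They included KLK3, which is also an androgen target, and members shared with the androgen response list were not taken out. The secreted phosphatase ACP3 was lower too, at 61.7, 63.3 and 42.4 CPM in NT3 and 21.7, 22.2 and 19.2 CPM in C2 (-1.41, SE 0.17). The luminal keratins KRT8, at 443, 511 and 396 CPM and 286, 319.5 and 339 CPM (-0.52, SE 0.08), and KRT18, at 452, 465 and 421 CPM and 356, 358 and 361 CPM (-0.32, SE 0.05), fell by smaller amounts. Basal markers were scarce in both lines, with 4 of 16 passing the filter. Of these 4, 1 was higher (25%, against 9.67% of all genes) and 1 lower (25%, against 13.3%), with a median of 0.09. The lower one was EGFR (-0.60, SE 0.14). Among 13 tested neuroendocrine and neural genes, 4 were higher (30.8%, against 9.67% of all genes) and 2 lower (15.4%, against 13.3%). The higher ones included PEG10, a retrotransposon-derived gene, at 82.7, 69.7 and 85.3 CPM in NT3 and 181, 176 and 164 CPM in C2 (log2 fold change 1.13, SE 0.08, adjusted p = 1.05e-10), and ENO2, a neuronal enolase (0.63, SE 0.10). The lower ones were SYT4 and SOX11 (-2.07, SE 0.33), a transcription factor of neural progenitors. SYT4 encodes a synaptic vesicle protein and stood at 85.6, 57.8 and 81.2 CPM in NT3 and 2.3, 1.87 and 2.96 CPM in C2 (log2 fold change -4.96, SE 0.28, adjusted p = 1.77e-10).

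The receptor for insulin-like growth factor 1 lost most of its transcript. IGF1R (ENSG00000140443, chromosome 15, 98648539 to 98964530) stood at 85.6, 87.9 and 92.6 CPM in NT3 and 5.67, 5.39 and 5.78 CPM in C2, a 15.8-fold difference (log2 fold change -3.98, SE 0.17, adjusted p = 6.91e-14). The adaptors that carry its signal were lower as well, with IRS1 at 13.1, 11.1 and 14.6 CPM and 2.89, 2.27 and 3.92 CPM (-2.08, SE 0.18) and IRS2 at 28.4, 33.5 and 25.1 CPM and 11.6, 12.5 and 12 CPM (-1.27, SE 0.14). The insulin receptor INSR, at 47.1, 43.7 and 45.8 CPM and 47.6, 45.8 and 45.4 CPM (0.02, adjusted p = 0.876), and the ligand IGF1, at 7.76, 7.84 and 7.97 CPM and 7.23, 7.09 and 8.59 CPM (-0.04, adjusted p = 0.894), overlapped between the lines. IGFBP3, a binding protein that sequesters the ligand, was lower (-0.93, SE 0.11), while the adaptor GRB10 (0.54, SE 0.07) and the kinase AKT1 (0.20, SE 0.05) were higher. Of 20 tested genes of this pathway 9 were lower (45%, against 13.3% of all genes) and 2 higher, a share near the 9.67% of all genes, and 5 were lower without NT3 replicate 1.

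TGF-beta and BMP genes, the pathway in which TRIM33 is best known, split in both directions. Of 33 tested, 10 were lower (30.3%, against 13.3% of all genes) and 7 higher (21.2%, against 9.67%), with a median of -0.20. The type I receptor BMPR1B stood at 23.5, 21 and 29.4 CPM in NT3 and 1.34, 1.59 and 1.51 CPM in C2 (log2 fold change -4.05, SE 0.20, adjusted p = 4.94e-14), the lowest value of the list. PMEPA1 (-1.03, SE 0.12), a feedback inhibitor that androgen also induces, and the pseudoreceptor BAMBI (-0.96, SE 0.14) were lower, and so was the shared mediator SMAD4 (-0.31, SE 0.05). TGFBR1 (0.28, SE 0.07) and TGFBR3 (0.34, SE 0.07), which bind TGF-beta at the cell surface, were higher. The number of higher members was 3 without C2 replicate 2 or 3 or NT3 replicate 2, close to the share of all genes, and 4 without NT3 replicate 1 or 3.

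Genes of the unfolded protein response, which raises folding capacity in the endoplasmic reticulum, were lower in C2. Of 31 tested, 20 were lower and 0 higher, with a median of -0.28, against 13.3% lower among all genes. The sensor ERN1 (IRE1-alpha) stood at 147, 135 and 168 CPM in NT3 and 72.6, 76.8 and 99.7 CPM in C2 (-0.85, SE 0.17). Its target transcript XBP1 stood at 191, 205 and 228 CPM and 137, 141 and 151 CPM (-0.54, SE 0.12), and the chaperone HSPA5 (BiP) at 958, 1085 and 1108 CPM and 658, 691 and 722 CPM (-0.61, SE 0.07). The co-chaperone DNAJB9, an XBP1 target, stood at 47.7, 47.6 and 70.9 CPM in NT3 and 21.4, 23 and 31.7 CPM in C2 (-1.12, SE 0.27). The stress effectors DDIT3 (-0.00), ATF3 (0.01) and TRIB3 (0.21) were not called. BHLHA15 (MIST1), a factor of secretory cells, stood at 16.3, 18.7 and 23.4 CPM and 1.87, 1.76 and 2.36 CPM (log2 fold change -3.27, SE 0.25, adjusted p = 1.7e-09). Glycosyltransferases and proteoglycan enzymes act further along the secretory route. Of 42 tested, 18 were lower (42.9%, against 13.3% of all genes) and 4 higher (9.52%, near the 9.67% of all genes). Among them CSGALNACT1, which starts chondroitin sulfate chains, stood at 9.66, 12 and 12.1 CPM and 0.749, 0.68 and 1.66 CPM (log2 fold change -3.42, SE 0.29, adjusted p = 2.94e-09).

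Genes that androgens lower went in both directions. Of 21 tested members of an androgen-repressed list, 11 were higher and 7 lower, with a median of 0.38, against 9.67% and 13.3% of all genes. The 11 included 5 UDP-glucuronosyltransferases of the UGT2B family, which attach glucuronic acid to androgens and other steroids and lie in a cluster on chromosome 4. UGT2B17 (ENSG00000197888, chromosome 4, 68537173 to 68576413) stood at 78.1, 119.7 and 61.2 CPM in NT3 and 212, 272 and 234 CPM in C2 (log2 fold change 1.47, SE 0.27, adjusted p = 0.000743). UGT2B15, whose promoter is printed above, stood at 29.5, 31.2 and 21 CPM and 72.6, 86.4 and 61.1 CPM (log2 fold change 1.43, SE 0.20, adjusted p = 3.99e-05). UGT2B11 stood at 3.18, 5.4 and 3.99 CPM and 13.5, 15.9 and 13.9 CPM (log2 fold change 1.79, SE 0.19, adjusted p = 7.35e-08), and UGT2B10 at 2.73, 2.31 and 3.25 CPM and 10.3, 9.92 and 9.14 CPM (log2 fold change 1.82, SE 0.20, adjusted p = 1.62e-07). In all 4 genes the highest NT3 library lay below the lowest C2 library. UGT2B28 was called at a lower level, 0.509, 0.725 and 0.797 CPM and 1.07, 1.7 and 1.46 CPM (1.05, SE 0.29). The family's members are near-identical in places, and how shared reads were counted is not given in the sources used here.

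Other androgen-repressed genes differed in direction. CAMK2N1 (ENSG00000162545, chromosome 1, 20482391 to 20486210), an inhibitor of CaM kinase II, stood at 193, 239 and 184 CPM in NT3 and 724, 724 and 687 CPM in C2 (log2 fold change 1.79, SE 0.10, adjusted p = 1.18e-11). The bile salt pump ABCB11 (1.55, SE 0.28), the phospholipase PLD1 (1.05, SE 0.12) and butyrylcholinesterase BCHE (0.76, SE 0.18) were also higher. The adrenergic receptor ADRA2A, at 3.75, 3.62 and 3.06 CPM and 0.161, 0.17 and 0.151 CPM (log2 fold change -4.38, SE 0.39, adjusted p = 3.65e-09), the opioid receptor OPRK1 (-1.40, SE 0.26), the clotting inhibitor TFPI (-1.28, SE 0.13) and the prostate membrane protein TMEFF2 (-0.93, SE 0.19) were lower. Of 17 tested genes of steroid metabolism 9 were higher (52.9%, against 9.67% of all genes) and 2 lower, near the background share of 13.3%. Beside the UGT2B genes the higher ones were the steroid reductases SRD5A1 (0.22, SE 0.07) and SRD5A3 (0.31, SE 0.11), the sulfatase STS (0.26, SE 0.08) and the dehydrogenase HSD17B11 (0.39, SE 0.11).

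The genes with the largest rises came from varied families. KCNH8 (ENSG00000183960, chromosome 3, 19148510 to 19535642), a voltage-gated potassium channel, stood at 0.763, 1.52 and 1.59 CPM in NT3 and 15.7, 13.8 and 18.2 CPM in C2 (log2 fold change 3.63, SE 0.27, adjusted p = 7.81e-10). PURPL, a long non-coding RNA induced by p53, stood at 0.954, 1.19 and 0.996 CPM and 11, 7.54 and 6.13 CPM (log2 fold change 2.96, SE 0.27, adjusted p = 9.96e-09). Of 24 tested p53 targets, 5 were higher (20.8%, against 9.67% of all genes) and 3 lower (12.5%, near the 13.3% of all genes). PLA2G2A (ENSG00000188257, chromosome 1, 19975431 to 19980416), a secreted phospholipase, stood at 18.6, 19.4 and 18.3 CPM and 87.7, 84.7 and 92.4 CPM (log2 fold change 2.23, SE 0.07, adjusted p = 1.11e-17), with the smallest adjusted p of all genes tested. CBLN2, a secreted synapse organiser, stood at 275, 279 and 213 CPM in NT3 and 1093, 1118 and 938 CPM in C2 (log2 fold change 2.04, SE 0.23, adjusted p = 4.53e-06). DOK6, an adaptor of receptor tyrosine kinases, lies on the same arm of chromosome 18 and stood at 18.9, 20.7 and 10.7 CPM and 73.7, 96.1 and 69 CPM (log2 fold change 2.24, SE 0.30, adjusted p = 2.61e-05). TLL1, a metalloprotease that processes procollagen, stood at 36.7, 42.7 and 24.2 CPM and 145, 150.4 and 114 CPM (log2 fold change 1.98, SE 0.31, adjusted p = 0.000145), and the myelin protein gene PMP22 at 2.8, 2.57 and 2.13 CPM and 8.46, 12.7 and 8.94 CPM (log2 fold change 2.0, SE 0.21, adjusted p = 1.01e-07). In each of these 7 genes every C2 library lay above every NT3 library, which the rule for picking the largest changes required.

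Fewer than 50% of the tested proliferation and ribosome genes were called, nearly all of them higher. Of 51 tested cell cycle and replication genes, 23 were higher (45.1%, against 9.67% of all genes) and 1, the kinase CDK6 (-0.89, SE 0.22), was lower, with a median of 0.27. The replication licensing factors CDT1 (0.79, SE 0.14) and MCM2 (0.47, SE 0.11) and the transcription factor E2F1 (0.45, SE 0.13) were among the higher genes, as was the kinase inhibitor CDKN2C (0.74, SE 0.11). The count of higher genes was 11 without C2 replicate 1 and 8 without NT3 replicate 2. Of 25 genes of ribosome biogenesis and MYC targets, 12 were higher (48%) and 0 lower, with a median of 0.18, and 6 were higher without NT3 replicate 2. Their examples include the nucleolar proteins BOP1 (0.39, SE 0.09) and RRP9 (0.32, SE 0.08). MYC itself stood at 145, 142 and 171 CPM in NT3 and 184, 181 and 214 CPM in C2 (log2 fold change 0.34, SE 0.11, adjusted p = 0.0253), a call that ended without NT3 replicate 1 (adjusted p = 0.0834) or 2 (0.119) or C2 replicate 3 (0.111), and without the filter on low counts (0.0512).

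Of 32 tested interferon-stimulated and antigen presentation genes 12 were higher (37.5%, against 9.67% of all genes) and 1 lower, with a median of 0.24. The list's summed level overlapped between the lines, at 733.1 to 768.6 CPM in NT3 and 761 to 798.5 CPM in C2. IFIT1, which binds foreign RNA, stood at 0.89, 0.329 and 0.531 CPM in NT3 and 2.19, 2.32 and 1.66 CPM in C2 (log2 fold change 1.79, SE 0.32, adjusted p = 0.000133), and NLRC5, a transactivator of class I genes, at 1.59, 1.32 and 1.93 CPM and 4.28, 3.74 and 4.37 CPM (1.36, SE 0.24). IRF1 (0.77, SE 0.19) and HLA-F (0.67, SE 0.18) were also higher, whereas HLA-B (-0.06) and HLA-C (-0.03) were not called. The count of higher genes was 7 without C2 replicate 2, and 7 with only the compared libraries in the fit.

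**Figure D3:**
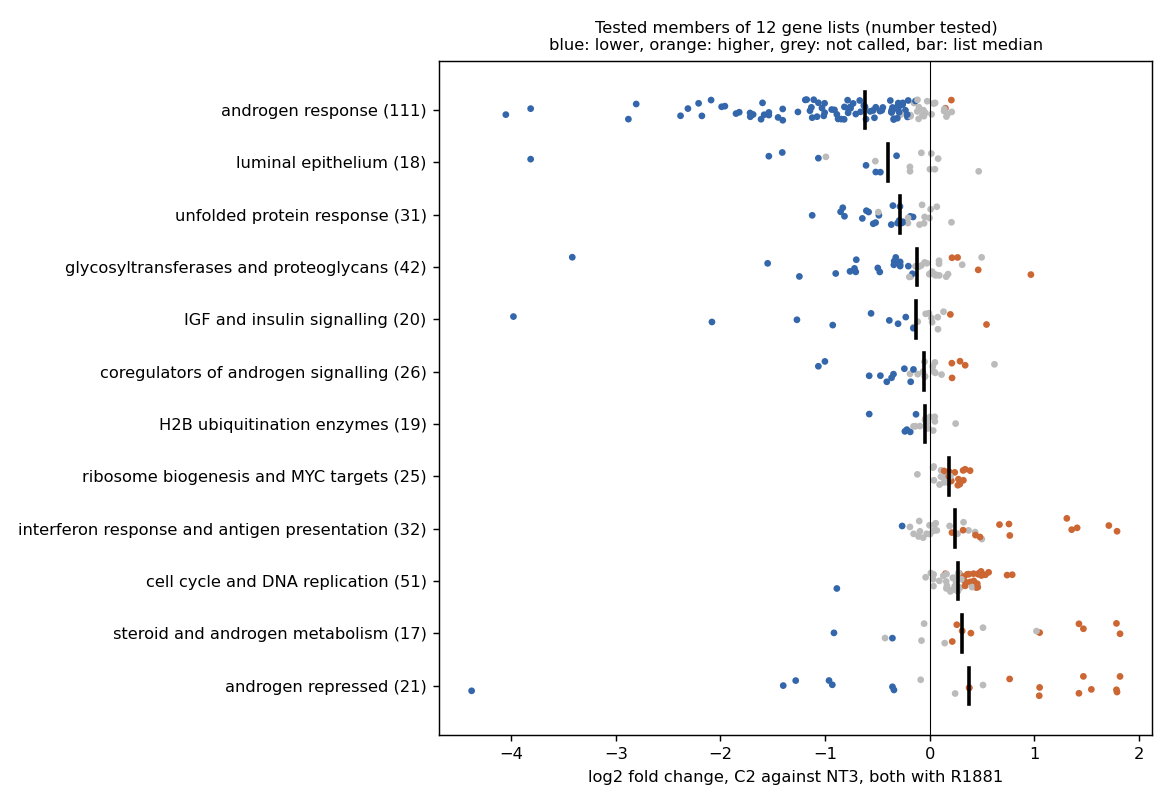
Each point is a tested member of 1 of 12 gene lists (number tested in brackets), placed by its log2 fold change of C2 against NT3 after R1881, and the bar is the list's median. Androgen response genes lie mostly to the left (85 of 111 lower), unfolded protein response genes show 20 of 31 lower, and cell cycle genes show 23 of 51 higher.

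Some genes expressed in NT3 gave no or almost no counts in C2. SALL2 (ENSG00000165821, chromosome 14, 21521080 to 21537216), a zinc finger transcription factor, had 150, 155 and 97 counts in NT3 and 0 in every C2 library, so it was at least 164-fold lower. HFE (ENSG00000010704, chromosome 6, 26087281 to 26098343), which regulates iron uptake, had 85, 70 and 100 counts in NT3 and 0 in C2, at least 104-fold lower. Both bounds set C2 at a floor of 3 counts over its 3 libraries, or 0.0534 CPM. MAGEA4, a cancer-testis antigen on chromosome X, had 266 counts in NT3 and 1 in C2, a ratio of 325 with an exact 95% interval of 57.9 to 1.29e+04. The floor and interval cover counting error only. HOXB3, a homeobox gene, had 23 counts in NT3 and 0 in C2, at least 9.38-fold lower. Among 17 tested HOX genes 1 was lower (5.88%, against 13.3% of all genes) and 1 higher (5.88%, against 9.67%).

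Further genes were close to silent in C2. UTY (ENSG00000183878, chromosome Y, 13234577 to 13480673), a histone demethylase gene of the Y chromosome, stood at 12, 11.6 and 12.6 CPM in NT3 and 0.214, 0.17 and 0.1005 CPM in C2 (log2 fold change -6.17, SE 0.26, adjusted p = 2.66e-15). Of 22 tested Y chromosome genes 2 were lower (9.09%, against 13.3% of all genes) and 3 higher (13.6%, against 9.67%). Their median was 0.13, so most tested genes of the chromosome did not fall as UTY did. AUTS2, a chromatin regulator, stood at 6.93, 6.72 and 6.24 CPM and 0.214, 0.284 and 0.1005 CPM (log2 fold change -5.03, SE 0.33, adjusted p = 1.54e-11), the RNA-binding protein gene MSI1 at 6.74, 7.05 and 5.65 CPM and 0.161, 0.227 and 0.301 CPM (log2 fold change -4.77, SE 0.25, adjusted p = 1.38e-13), and the laminin chain LAMB1 at 7.31, 6.72 and 7.91 CPM and 0.268, 0.624 and 0.603 CPM (log2 fold change -3.86, SE 0.20, adjusted p = 1.38e-13). Every C2 library of these 4 genes lay under 1 CPM, and every NT3 library above 5 CPM.

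The same lines were compared with DMSO in libraries that the R1881 comparison did not use, which asks whether the difference was there before hormone. Without androgen 2818 genes were called (18.2% of those tested), 1323 higher (8.53%) and 1495 lower (9.63%), and 1841 without C2 with DMSO, replicate 1. In both treatments 839 genes were higher and 1097 lower, which is 54.3% of the R1881 calls and 68.7% of the DMSO calls, and 7 were called in opposite directions. IGF1R stood at 13.2, 9.85 and 17.7 CPM in NT3 and 1.27, 1.4 and 1.08 CPM in C2 with DMSO (-3.43), and KLK3 at 1348, 1400.0 and 1357 CPM and 52.6, 48.8 and 83.2 CPM (-4.48). Both were therefore already lower without added androgen. Androgen response genes had a median of -0.23 with DMSO, 44 of 111 lower and 5 higher, against -0.62 with R1881.

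An interaction term tested whether the difference between the lines depended on androgen. It called 107 genes (0.689% of those tested), 92 with a lower difference with R1881 than with DMSO (0.593%) and 15 with a higher one (0.0967%), and 978 genes had an unadjusted p under 0.05. The total was 64 without C2 with R1881, replicate 1, 70 without NT3 with R1881, replicate 2, 69 without C2 with DMSO, replicate 1, and 70 without C2 with DMSO, replicate 2. It rose to 191 without the filter on low counts, and to 326 (232 lower and 94 higher) with the replicate number as a block.

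FKBP5 showed this clearly, at 77.9, 75.2 and 78.2 CPM in NT3 and 91, 80.5 and 78.2 CPM in C2 with DMSO, where the groups overlapped, beside the R1881 levels given above (interaction -1.25, SE 0.12, adjusted p = 4.7e-06). ERRFI1, a feedback inhibitor of the EGF receptor, stood at 165, 216 and 156 CPM in NT3 and 52, 54.3 and 64.3 CPM in C2 with R1881, and at 28.8, 22.8 and 27.9 CPM and 24, 24 and 27.9 CPM with DMSO (interaction -1.58, SE 0.22, adjusted p = 0.00063). With DMSO its groups overlapped too. OTULINL, an inactive deubiquitinase-like protein, stood at 92.6, 112 and 80.9 CPM and 18.6, 16.7 and 18.7 CPM with R1881 and at 16.2, 13.7 and 12.9 CPM and 10.6, 7.39 and 7.76 CPM with DMSO (interaction -1.66, SE 0.24, adjusted p = 0.000675). The adaptor IRS2 lay at 4.68, 4.74 and 4.58 CPM in NT3 and 5.32, 5.88 and 5.48 CPM in C2 with DMSO, slightly higher in each C2 library, and the reverse with R1881 (interaction -1.52, SE 0.23, adjusted p = 0.000583). TRIM24 gave a smaller difference of this kind, at 74.5, 79.3 and 75.3 CPM in NT3 and 74, 76.1 and 69.9 CPM in C2 with DMSO (interaction -0.52, SE 0.09, adjusted p = 0.0031). These 5 interaction calls held in each alternative fitted, while the 2-fold minimum, applied to the fitted values, leaves out TRIM24. By contrast the interaction values of KLK3 (0.66, adjusted p = 0.713) and TRIM33 (-0.17, adjusted p = 0.999) were not called, and that of TMPRSS2 (-0.83, adjusted p = 0.0587) missed the threshold.

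The transcription factor RUNX1 (ENSG00000159216, chromosome 21, 34787801 to 36004667) had the largest negative interaction among the named genes, at 7.57, 6.0 and 9.03 CPM in NT3 and 0.856, 0.567 and 0.854 CPM in C2 with R1881, and at 0.468, 0.503 and 1.03 CPM and 0.52, 0.28 and 0.722 CPM with DMSO (interaction -2.89, SE 0.63, adjusted p = 0.0211). Its counts with DMSO were low, and the call ended without 1 of several single libraries, with adjusted p of 0.0518 to 0.225: C2 with R1881, replicate 1 or 2, C2 with DMSO, replicate 1 or 3, and NT3 with DMSO, replicate 1 or 2. Among the 15 genes with a higher difference, MYNN, a zinc finger gene, stood at 54.9, 52.3 and 53.9 CPM in NT3 and 38.5, 34.9 and 34.6 CPM in C2 with R1881, and at 86.6, 76.9 and 78.9 CPM and 33.8, 35.6 and 37.4 CPM with DMSO (interaction 0.61, SE 0.09, adjusted p = 0.000563). SPTLC3, which makes sphingoid bases, stood at 55.4, 55.8 and 62.8 CPM and 92.8, 95.1 and 80.8 CPM with R1881, and overlapped with DMSO at 104, 116 and 104 CPM and 109, 123 and 113 CPM (interaction 0.54, SE 0.10, adjusted p = 0.00414).

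**Figure D4:**
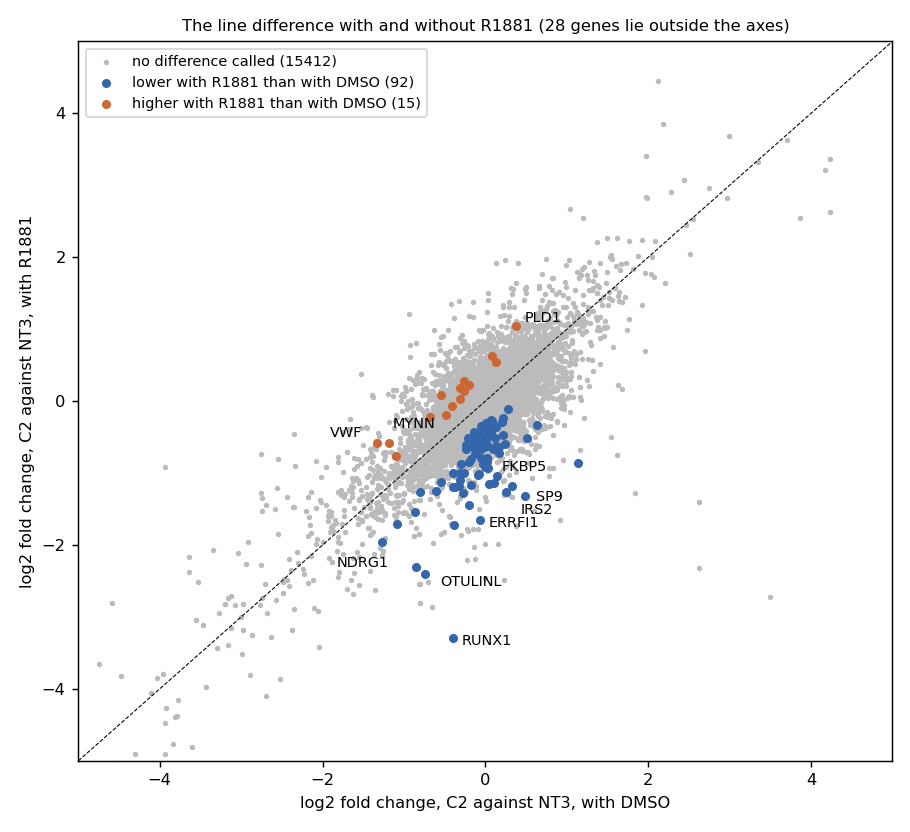
Each point is a tested gene, with the log2 fold change of C2 against NT3 with DMSO on the horizontal axis and with R1881 on the vertical axis, and 28 genes lie outside the axes. The 92 genes with a lower difference with R1881 (blue) lie below the diagonal and the 15 with a higher one (orange) above it.

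F2, whose name shares the guide and MC with C2, was compared with C2 directly, both with R1881. This called 3258 genes (21% of those tested), 1437 higher in C2 (9.26%) and 1821 lower (11.7%). TMPRSS2 stood at 661, 913 and 646 CPM in F2, far above C2 (C2 minus F2 -1.90, SE 0.13, adjusted p = 3.19e-09), and KLK3 at 440.4, 511 and 588 CPM (C2 minus F2 -1.41, SE 0.20, adjusted p = 6.95e-05). TRIM33 was also lower in C2 than in F2, where it stood at 52.8, 59.2 and 61.9 CPM (C2 minus F2 -0.45, SE 0.08, adjusted p = 0.000127). UTY stood at 13.3, 15.1 and 13.5 CPM in F2 and LAMB1 at 4.28, 4.67 and 4.6 CPM, so the near silence of both in C2 was not shared by F2 (C2 minus F2 -6.39 and -3.16, adjusted p = 9.38e-16 and 2.99e-11). SALL2, HFE and MAGEA4 by contrast gave 0 counts in F2 with R1881 too. ADRA2A, CLIP4, RTL5, SLC16A7, ZNF728 and MSI1 were the other genes furthest below F2 among those also lower than NT3 with a mean of at least 5 CPM in C2, NT3 or F2, with C2 minus F2 values of -5.82 to -3.09. HOXB3, under that level in all 3 lines, gave 0 counts in C2 and 2.93, 2.39 and 2.64 CPM in F2.

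KCNH8 stood at 0, 0.38 and 0.184 CPM in F2, so the rise in C2 was not shared (C2 minus F2 6.30, SE 0.37, adjusted p = 2.1e-11). UGT2B11 stood at 1.83, 2.61 and 1.78 CPM in F2 (C2 minus F2 2.78, SE 0.21) and UGT2B15 at 14.4, 14.1 and 13.4 CPM (C2 minus F2 2.39, SE 0.22), under every NT3 library in both genes. PMP22 (3.43, SE 0.25), MAB21L4 (2.69, SE 0.27), the adhesion molecule CNTN5 (2.47, SE 0.58) and the unnamed RNA ENSG00000286447 (3.42, SE 0.27) were likewise higher in C2 than in F2. CNTN5 varied widely between replicates, and its call against NT3 ended without C2 replicate 2 (adjusted p = 0.0693) or NT3 replicate 1 (0.0626) or 3 (0.0665).

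By position, genes of chromosome 22 stood below those of the other autosomes and chromosome X. Of its 381 tested genes, 116 (30.4%) were lower and 7 (1.84%) higher in C2 with R1881, with a median of -0.19, while the medians of chromosomes 1 to 21 and X lay between -0.03 and 0.06. All 8 stretches of 5 Mb with at least 10 tested genes on chromosome 22 had medians between -0.29 and -0.15. With DMSO the median of the chromosome was -0.15. Against the same NT3 libraries with R1881 it was -0.21 in F2 and -0.17 in the sgT33-5 line, and C2 against F2, which leaves NT3 out, gave 0.03. The sgT33-5 median includes a library of low mitochondrial share (2.40%). No test was run on position, and DNA copy number was not measured in these libraries.

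**Figure D5:**
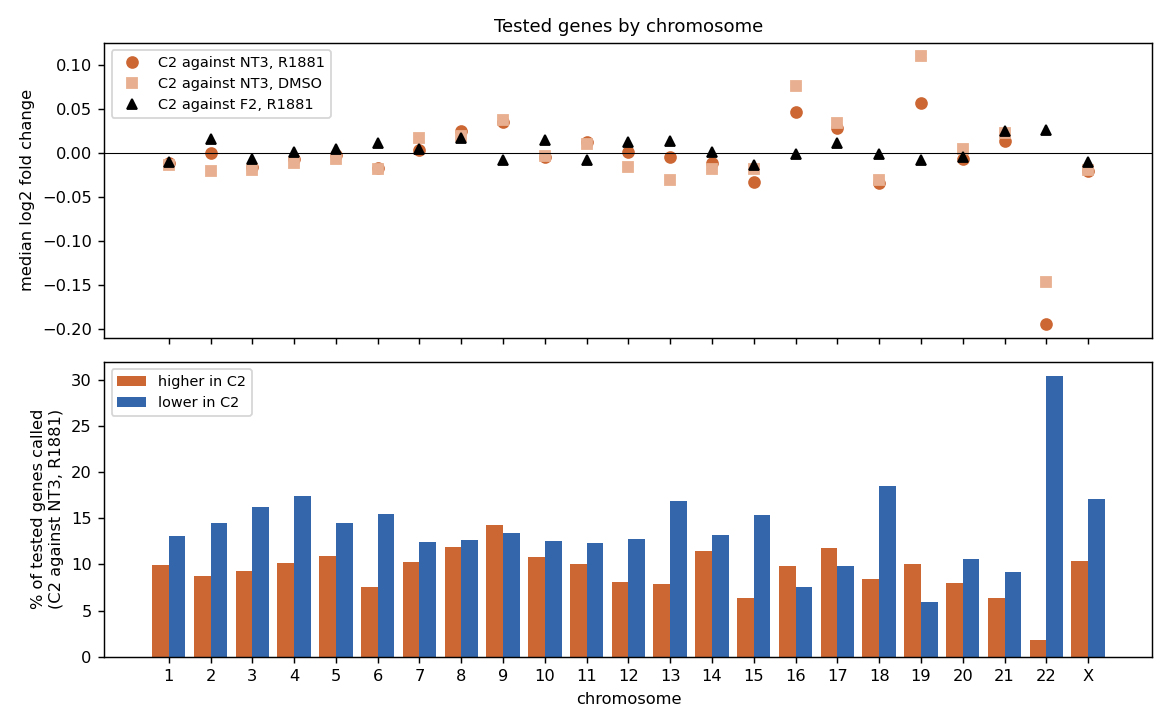
The upper panel gives the median log2 fold change of tested genes on each chromosome for 3 comparisons, and the lower panel the percentage of tested genes called higher (orange) or lower (blue) in C2 against NT3 with R1881. Chromosome 22 has medians of -0.19 (R1881) and -0.15 (DMSO) against NT3 but 0.03 against F2.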

How the data were processed

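Polyadenylated RNA of 36 libraries (12 groups of 3) was measured with a stranded kit. Per the submitters' processing notes, the authors used cutadapt and HISAT2 2.1.0 with the GRCh38 (hg38) build, and they deposited raw gene counts as whole numbers. The counter, its strand setting and its handling of shared reads are not given in the sources used here, so reads of paralogs and of overlapping antisense genes cannot be told apart. The 1 table entry with no gene name held 0 counts and was dropped, and no column of values lacked a sample.

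The 24 LNCaP libraries (8 groups) were fitted together without a block in edgeR 4.0.16 (R 4.3.3), with TMM scaling, the filter filterByExpr by group, the robust quasi-likelihood F test, 2-sided, and Benjamini-Hochberg adjustment over 15519 genes at 0.05. The SE is the fold change divided by the root of F, and CPM uses the TMM-scaled library total. The tests were C2 against NT3 with R1881, the same with DMSO, the difference between these, and C2 against F2 with R1881. The code was tested on simulated counts. Gene positions come from GENCODE on GRCh38 and promoters from RefSeq on GRCh38.p14.

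The comparison and the 33 gene lists were chosen with earlier results of these data known, the lists from general knowledge. The named genes were a fixed panel of TRIM33-related and androgen-related genes, the 15 highest and 15 lowest called changes (mean of at least 5 CPM, no overlap), up to 3 called members per list and direction, genes with at least 5 CPM in 1 line and at most 0.1 CPM in every library of the other, the 8 largest interactions per direction, and the 8 largest C2 against F2 differences per direction among genes also called against NT3. A few genes that this rule selects are not reported here. Other list members named in the text were chosen after their values were seen. The alternative settings replaced the test by DESeq2 1.42.0, TMM by RLE, dropped the filter, fitted only the compared libraries, added the replicate number as a block or a minimum change of 2-fold, or left out each library in turn. Leaving out 2 sgT33-5 libraries of low mitochondrial share, which are in the fit but in none of the tests listed above, was added after seeing the data. They were replicate 3 with DMSO (2.14%) and replicate 1 with R1881 (2.40%). The library with R1881 is part of the sgT33-5 median given for chromosome 22.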

Additional observations from a re-analysis of the deposited data

Results flagged for a closer look

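The following genes differed in how C2 compared with NT3 between R1881 and DMSO, each with an edgeR adjusted p under 0.05 for the difference itself (log2, difference with R1881 minus difference with DMSO, 3 libraries in each of 4 groups). Beside the genes given with their levels above, namely FKBP5 (-1.25), ERRFI1 (-1.58), OTULINL (-1.66), IRS2 (-1.52), TRIM24 (-0.52), RUNX1 (-2.89), MYNN (0.61) and SPTLC3 (0.54), lower differences with R1881 were found for NDRG1 (-1.46), the elongation factor partner EAF2 (-1.34), the transcription factor SP9 (-1.80), the nuclear receptor NR4A1 (-1.19), the Wnt receptor FZD5 (-0.94) and the epithelial factor GRHL2 (-0.69). The same held for LRIG1 (-0.74), a negative regulator of ERBB receptors, the transcription factor TWIST1 (-0.97), the tubulin TUBA3D (-1.99), the amino acid transporter SLC36A1 (-0.63), the fatty acid ligase ACSL3 (-0.77) and the death receptor TNFRSF10B (-0.48). Higher differences with R1881 were found for VWF (0.76), the exchange factor ARHGEF26 (0.45), the tight junction protein OCLN (0.62), MACIR (0.49), the ciliary transcription factor RFX3 (0.54), the adaptor GRB10 (0.42) and the phospholipase PLD1 (0.67). A higher difference is not always a higher level in C2. The endothelial sums, nearly all VWF, were 19.8 to 23.7 CPM in NT3 and 12.6 to 16.8 CPM in C2 with R1881.

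The calls of RUNX1, NDRG1, SP9, TUBA3D, SLC36A1, VWF, MACIR, GRB10 and PLD1 ended in at least 1 alternative. The calls of the other 18 genes held in each alternative fitted, but a 2-fold minimum leaves out those among them whose value lies between -1 and 1.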

How the results depend on the processing

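With R1881, C2 against NT3 gave 2732 to 3219 calls when 1 library was left out, and with DMSO 1841 to 2478, the lowest without C2 with DMSO, replicate 1. The interaction gave 64 to 107 and C2 against F2 2307 to 3087. A 2-fold minimum left 603, 467, 15 and 599 calls in the same order of comparisons. The interaction gave 191 calls without the filter on low counts. Without that filter the main comparison gave 1849 higher and 1794 lower calls, against 1500 and 2064 with it. Apart from the replicate block, other settings stayed within 1.5 times the count reported, and the median over all genes moved by less than 0.001 between TMM, RLE and DESeq2 scaling.

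Replicate numbers did not pair the libraries by the rule used: same-numbered deviations of C2 and NT3 with R1881 correlated at 0.0752, 0.180 and 0.210, and those of all group pairs compared at 0.0233 to 0.332 (all 3 over 0.1 only for C2 with R1881 and NT3 with DMSO), although each of the 6 libraries correlated best with its own number. With the replicate number as a block the counts were 4920, 4199, 326 (232 lower and 94 higher) and 4746, and KLK2 was called (-0.59, adjusted p = 0.00987), as was FOXA1 (-0.19, adjusted p = 0.000769). Without the filter on low counts edgeR called FOXA1 as well (-0.16, adjusted p = 0.0288).

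Of the 179 genes that the naming rule selects, 31 lost their call in the main comparison in at least 1 alternative. The other 148 include genes that were not called there and so had no call to lose, among them KLK2, FOXA1, HOXB13, RNF20 and RNF40. RNF20, which was not called, changed sign to 0.00942 without the filter, 0.00954 without NT3 replicate 2, 0.00256 without C2 replicate 1 and 0.0224 without C2 replicate 3, and RNF40 to 0.000557 without C2 replicate 1; without single libraries their lowest values were -0.0411 (RNF20) and -0.0584 (RNF40), both without C2 replicate 2. With 3 libraries a group, small changes of genes with low counts may lie below detection.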

Other observations

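Other gene groups showed smaller or mixed differences between C2 and NT3 with R1881, where 9.67% of all genes tested were higher and 13.3% lower. Of 33 tested genes of cholesterol and fatty acid synthesis, 7 were higher and 5 lower, with the squalene epoxidase SQLE at 0.26 and the desaturase SC5D at -0.40 (log2), and with DMSO 14 were higher. The Wnt list gave 5 higher and 11 lower of 30, among them the ligand WNT3 at -2.33 and the receptor FZD5 at -1.02, and 7 lower without NT3 replicate 2. The Notch list gave 5 higher and 6 lower of 23, with the ligand JAG1 at -1.33 and the receptor NOTCH1 at 0.78, and 3 lower without NT3 replicate 2. Polyamine enzymes gave 0 higher and 4 lower of 13, with the acetyltransferase SAT1 at -0.63, and hypoxia and glycolysis genes 2 higher and 5 lower of 32 (3 lower without C2 replicate 3). In 13 genes of the mitochondrial chromosome no call was made, with a median of -0.17.

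Among cell surface genes, adhesion molecules gave 3 higher (13.6%) and 4 lower (18.2%) of 22, shares near those of all genes, and amino acid transporters 5 higher (20%) and 3 lower (12%) of 25, with the glutamate transporter SLC1A1 at 0.88 and SLC38A4 at -2.38. Of 20 tested genes of ERBB and MAPK feedback 6 were higher and 5 lower, with the phosphatase DUSP5 at 1.07 and the receptor inhibitor LRIG1 at -1.0. Of 22 immediate early genes, 4 were higher and 5 lower, with JUN at 0.59 and the antiproliferative gene BTG1 at -1.35. SOX and ETS factors gave 2 higher and 8 lower of 23, with SOX9 at -3.18 and ELF5 at -1.85. Apoptosis genes gave 2 higher and 5 lower of 24 (3 lower without C2 replicate 3 or NT3 replicate 1 or 2), with BCL2 at 0.72 and BAX at -0.67. Of 12 tested mesenchymal markers, 2 were higher and 3 lower, with FN1 at -0.84.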
